A study of Mus musculus with 7 samples.

Results

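Levels of 7 genes that are commonly used to mark macrophages and monocytes were followed through RNA-seq libraries of sorted lung-derived dendritic cells (DCs) from infant and adult mice. The genes were Adgre1, Ly6c2, Cd68, Mertk, Lyz2, Fn1 and Sirpa. They were chosen by name, as the rows of the library tables that carry these symbols, and with earlier values of the same libraries known, so their levels and their differences between ages are given as descriptions. All 7 had a row among the 48440 genes of the tables, and all 7 were among the 12261 genes with enough reads to test. The cells were CD11b+ migratory DCs, which carry inhaled material from the lung to the mediastinal lymph node, and they had been sorted for CD11c, CD11b and abundant MHC class II and against B220, CD64 and CD103. All mice were of the B6 strain, and both groups had received house dust mite allergen (HDM) with lipopolysaccharide (LPS) through the nose 24 hours before. The adult group held 3 libraries from mice of 7 weeks, and the infant group held 4 libraries from mice of 2 to 3 weeks. The question was how these DCs differ with age. Nothing in the labels tells if animals were pooled, so errors and tests measure the spread between these libraries.

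Macrophages and monocytes share much of their surface and lysosomal equipment with the CD11b+ branch of DCs, and no single transcript separates the lineages. Adgre1 encodes the F4/80 antigen, an adhesion receptor of tissue macrophages, and Ly6c2 encodes the surface protein Ly6C that marks classical monocytes. Cd68 encodes a glycoprotein of late endosomes and lysosomes, and Lyz2 the secreted lysozyme of myeloid cells that cuts bacterial cell walls. Mertk encodes a receptor kinase with which macrophages take up dying cells, Fn1 the matrix protein fibronectin, and Sirpa the inhibitory receptor for CD47, which CD11b+ DCs themselves carry.

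The libraries held 18022302 to 22316484 exon reads, so that 3 reads equalled 0.134 to 0.167 reads scaled to library size (CPM). Infant 2 stood apart from the other 6 libraries on the first principal component, at 65.7 against -22.3 to 8.59, and held 13539 CPM of the nuclear RNA Malat1 against 3058 to 4411 CPM in the others. Every infant library held reads of both Xist and the 4 Y-linked genes examined, whereas adults 1 and 3 had 0 Xist reads and adult 2 had 546 Xist reads with 3 Y-linked reads. By these reads the infant libraries held material of both sexes and each adult library mainly of 1. This difference in sex makeup cannot be told apart from age in comparisons of the groups or of their spread. Ccr7, a chemokine receptor of migrating DCs, had a level of 5853 ± 471 CPM (SD, n = 3) in adults and 4954 ± 294 CPM (SD, n = 4) in infants. Fcgr1, which encodes the CD64 that the sort had gated out, was still read at 9.74 to 23.2 CPM in adults and 8.63 to 31.6 CPM in infants. Itgam, which encodes the CD11b sorted for, is listed as 2 entries, and the entry that carries the gene's Ensembl identifier was used alone. That entry was at 15.7 to 17.45 CPM in adults and 9.83 to 21.2 CPM in infants. Itgax, for CD11c, was at 58.05 to 72.9 CPM in adults and 26.7 to 62.8 CPM in infants. Itgae, for the CD103 gated out, was at 1.39 to 3.24 CPM in adults and 0.586 to 1.26 CPM in infants.

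The promoters of Cd68, Lyz2 and Ly6c2 are shown because these genes were highest or second highest in infant 3. Adgre1 and Sirpa, also highest there in CPM, and Fn1 had no entry in the promoter table used. The windows shown are the 250 bases before the RefSeq start on GRCm38.p6, all on the minus strand, at chr11:69666171-69666420, chr10:117282273-117282522 and chr15:75111972-75112221, and the first of 2 entries was taken for Ly6c2. Capitals mark matches on either strand to GAGGAA, a core of sites for the myeloid factor PU.1, and to TGANTCA, the AP-1 site.
Cd68: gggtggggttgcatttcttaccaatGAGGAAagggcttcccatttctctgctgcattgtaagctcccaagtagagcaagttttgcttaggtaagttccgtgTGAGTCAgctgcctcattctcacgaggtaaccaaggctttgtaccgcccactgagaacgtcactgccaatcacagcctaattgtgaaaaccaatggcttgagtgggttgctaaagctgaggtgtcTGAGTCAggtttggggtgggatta
Lyz2: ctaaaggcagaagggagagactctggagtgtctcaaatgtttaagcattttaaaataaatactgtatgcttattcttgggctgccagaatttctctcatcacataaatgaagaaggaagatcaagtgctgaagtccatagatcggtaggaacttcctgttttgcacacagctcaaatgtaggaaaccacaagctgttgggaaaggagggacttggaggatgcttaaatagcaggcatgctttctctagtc
Ly6c2: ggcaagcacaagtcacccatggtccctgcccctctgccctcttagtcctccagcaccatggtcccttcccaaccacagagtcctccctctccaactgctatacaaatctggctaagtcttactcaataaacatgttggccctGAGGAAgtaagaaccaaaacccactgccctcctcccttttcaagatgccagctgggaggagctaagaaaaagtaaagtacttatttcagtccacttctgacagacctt
Cd68 held 2 matches to the AP-1 letters, which were found in 6.87% of 27025 promoters, and 1 to the PU.1 core, which was found in 23.1%. Its 3 matches did not overlap each other. Ly6c2 held 1 match to the PU.1 core, and Lyz2 held no match to either motif in this window, nor did Mertk. TATAAA, searched as well and found in 12.97% of promoters, was in none of the 4 windows. The motifs were picked after the levels had been seen, and a match describes letters, not a bound site.

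**Figure D1:**
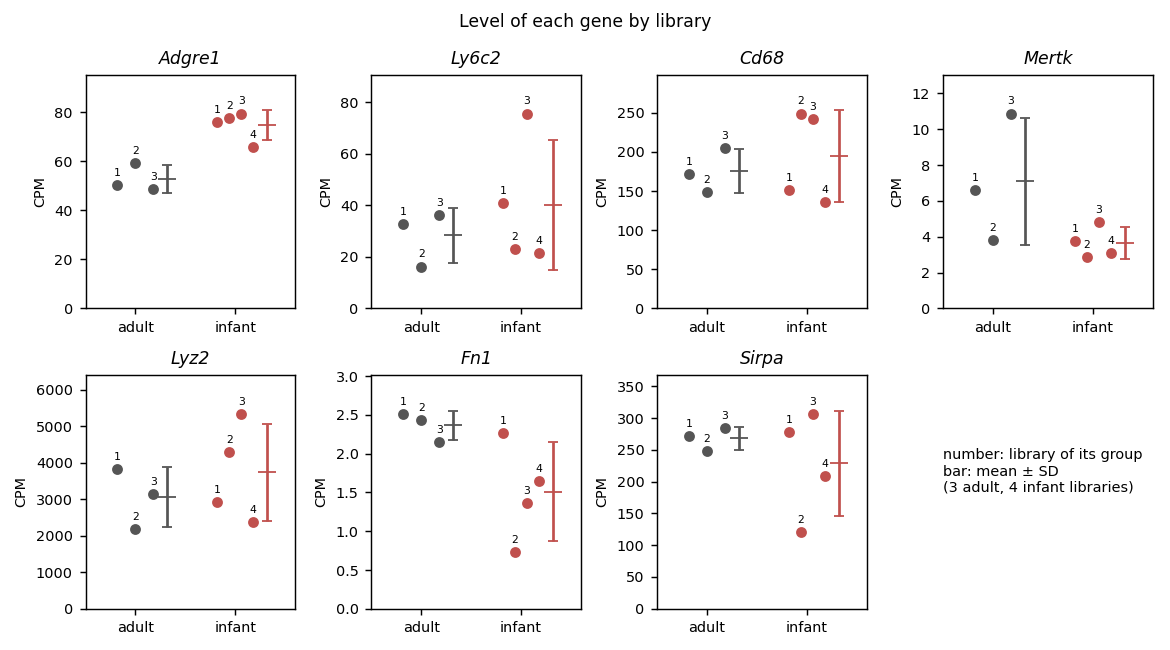
Level of each of the 7 genes in CPM on linear axes that start at 0, with 1 point per library (numbered within its group) and the mean ± SD of the 3 adult (grey) and 4 infant (red) libraries. Adgre1 is the gene whose points do not overlap between groups, with infants at 65.9 to 79.5 CPM and adults at 48.9 to 59.3 CPM.

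Adgre1 had a higher level in every infant library than in any adult library. It lies on mm10 at chr17:57358686-57483529 on the plus strand. Its levels were 50.2, 59.3 and 48.9 CPM in adults 1 to 3 and 76.0, 77.6, 79.5 and 65.9 CPM in infants 1 to 4. The infants lay close together. The fitted difference, infant minus adult, was 0.50 on the log2 scale (SE 0.13, edgeR). Its SD of log2 CPM among infants was 0.12, and 10.1% of tested genes had a smaller one, while its SD among adults was 0.15, with 44.5% smaller. It was the 1 gene of 7 whose groups did not overlap, beside 15.5% of all tested genes, and 7.97% of all tested genes had the infants above the adults. In bulk RNA, a difference in the number of cells of a type and a difference in RNA per cell cannot be told apart.

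The adhesion receptor relatives of Adgre1 lay lower in infants at the median, without a call. Of 10 listed genes 5 were tested, none passed by edgeR or DESeq2, and the median log2 difference was -0.59, beside 0.0016 over all tested genes. In 3 of the 5 every infant lay below every adult, beside 7.58% of all tested genes. Adgre5, which encodes the leukocyte receptor CD97, had a level of 124 ± 17.9 CPM (SD, n = 3) in adults and 73.2 ± 21.8 CPM (SD, n = 4) in infants, and edgeR gave adjusted p = 0.294. Adgrg5 had 27.1 ± 2.11 CPM (SD, n = 3) in adults and 17.8 ± 5.17 CPM (SD, n = 4) in infants. Adgrg6 had 39.1 ± 1.62 CPM (SD, n = 3) in adults and 28.6 ± 5.97 CPM (SD, n = 4) in infants.

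Ly6c2 had the widest range of the 7 in CPM. It lies on mm10 at chr15:75108158-75111970 on the minus strand. Its levels were 32.8, 16.3 and 36.2 CPM in adults 1 to 3 and 40.8, 23.2, 75.7 and 21.4 CPM in infants 1 to 4. Infant 3 stood highest and adult 2, the adult library with Xist reads, lowest, and the groups overlapped. The highest library was at 4.65 times the lowest in CPM and 4.13 times in TPM (scaled for exon length), where Mertk, at 4.17 times, had the wider range. The fitted log2 difference of 0.50 (SE 0.43, edgeR) was 0.00069 without infant 3 and 0.22 without adult 2. Of its reads 99.2% mapped to 1 place. Its neighbour Ly6c1, whose longest open reading frame was identical at 89.6% of 396 aligned bases, had 54 reads in all libraries together.

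Of 16 listed relatives of Ly6c2 in the Ly6 cluster 14 had a row, 7 had 0 reads in every library, and of the 5 tested none passed by edgeR or DESeq2, with a median log2 difference of 0.10. Ly6i, a close relative, was at 156, 55.4 and 176 CPM in adults 1 to 3 and at 185, 216, 423 and 135 CPM in infants 1 to 4. Ly6a, which encodes the antigen Sca-1, was at 166, 105 and 206 CPM in adults 1 to 3 and at 133, 83.8, 272 and 73.8 CPM in infants 1 to 4. Both were highest in infant 3. Ly6i was lowest in adult 2 and Ly6a in infant 4.

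Cd68 and Lyz2, the genes of the lysosome and of secreted defence, were high in infants 2 and 3. Cd68 lies on mm10 at chr11:69664213-69666153 and Lyz2 at chr10:117277334-117282274, both on the minus strand. The Cd68 levels were 172, 149 and 205 CPM in adults 1 to 3 and 151, 249, 242 and 136 CPM in infants 1 to 4. The Lyz2 levels were 3839, 2193 and 3152 CPM in adults 1 to 3 and 2927, 4297, 5341 and 2381 CPM in infants 1 to 4. In both genes the infants spanned the whole adult range except at its lower end for Lyz2, where adult 2 was lowest. The fitted log2 difference of Cd68 was 0.15 (SE 0.23, edgeR), and it was 0.010 without infant 2, 0.031 without infant 3 and 0.048 without adult 2, but 0.28 without infant 4, 0.28 without adult 3 and 0.26 without infant 1. That of Lyz2 was 0.29 (SE 0.28, edgeR), and it was 0.066 without infant 3 and 0.095 without adult 2, but 0.48 without adult 1 and 0.44 without infant 4. Lyz2 alone took 0.340% of all exon reads.

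Of 20 lysosome and endosome genes listed as partners of Cd68 19 were tested, none passed by edgeR or DESeq2, and their median log2 difference was 0.0018. Cd63, a membrane protein of late endosomes, was at 768 ± 120 CPM (SD, n = 3) in adults and 897 ± 130 CPM (SD, n = 4) in infants. Laptm5 and Lipa, with smaller p, were lower in infants. Laptm5 was at 1124 ± 34.55 CPM (SD, n = 3) in adults and 978 ± 95.4 CPM (SD, n = 4) in infants. Lipa was at 60.5 ± 1.03 CPM (SD, n = 3) in adults and 48.4 ± 12.6 CPM (SD, n = 4) in infants. For Lipa every infant lay below every adult, beside 7.58% of all tested genes. Lyz1, the other lysozyme gene beside Lyz2 and identical to it at 95.1% of 447 aligned bases of open reading frame, was at 27.8 ± 3.38 CPM (SD, n = 3) in adults and 28.0 ± 3.11 CPM (SD, n = 4) in infants. Per length, the level of Lyz2 was 72.7 to 191 times that of Lyz1 within a library.

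Mertk, the uptake receptor, was highest in 2 adults. It lies on mm10 at chr2:128698956-128802894 on the plus strand. Its levels were 6.60, 3.83 and 10.9 CPM in adults 1 to 3 and 3.79, 2.89, 4.85 and 3.09 CPM in infants 1 to 4. Adults 3 and 1 lay above every infant, and adult 2 lay among the infants. The fitted log2 difference was -0.96 (SE 0.35, edgeR), -0.52 without adult 3 and -1.26 without adult 2. It rested on 55 to 222 exon reads per library. Mertk also differed from the other 6 genes in where its reads fell: introns took 31.1% to 52.0% of its reads in each library and at most 5.88% of theirs. Of its 500 intron reads, 202 mapped to 1 place.

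Of 20 listed genes that work with Mertk in the uptake of dying cells 16 were tested and edgeR called none, while DESeq2 called Stab1 lower in infants, as it did 0.979% of all tested genes. The median log2 difference was -0.14. Stab1, a scavenger receptor, was at 11.6, 11.05 and 7.65 CPM in adults 1 to 3 and at 5.21, 4.21, 6.16 and 5.70 CPM in infants 1 to 4. Every infant lay below every adult, and the adjusted p was 0.245 by edgeR and 0.0196 by DESeq2. Mfge8, a bridge between dying cells and integrins, was at 61.4 ± 2.31 CPM (SD, n = 3) in adults and 83.8 ± 9.81 CPM (SD, n = 4) in infants, with adjusted p = 0.282 by edgeR. The ligand gene Gas6 was near its floor at 0 to 1.71 CPM. Axl, the related receptor, was at 124 to 186 CPM in adults and 97.8 to 191 CPM in infants, and Tyro3, the last of the family, was too low to test.

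Fn1 had the lowest level of the 7. It lies on mm10 at chr1:71585520-71653200 on the minus strand. Its levels were 2.52, 2.44 and 2.16 CPM in adults 1 to 3 and 2.27, 0.736, 1.37 and 1.65 CPM in infants 1 to 4. Infant 1 lay within the adult range, and infant 2 was lowest with 14 reads. The fitted log2 difference was -0.65 (SE 0.40, edgeR) and -0.42 without infant 2. Of 18 listed receptors and matrix partners 11 were tested, with a median log2 difference of -0.24. By edgeR none was called, and DESeq2 called Sdc2 lower, beside 0.979% of all tested genes. Sdc2 was near its floor, with 100 reads in all and 0 to 0.426 CPM in infants. In Sdc2, Tgm2 and Itga4, 3 of the 11, every infant lay below every adult, beside 7.58% of all tested genes. Tgm2 was at 40.2 ± 7.41 CPM (SD, n = 3) in adults and 21.7 ± 7.48 CPM (SD, n = 4) in infants. Itga4, a chain of the fibronectin receptor VLA-4, was at 154, 179 and 158 CPM in adults 1 to 3 and at 137, 68.9, 116 and 114 CPM in infants 1 to 4. Infant 2 was lowest for Itga4 as for Fn1, beside 29.9% of all tested genes, and edgeR gave adjusted p = 0.311 for Itga4.

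Sirpa, the receptor that DCs also carry, had the second highest CPM of the 7 on average in both groups. It lies on mm10 at chr2:129592835-129632228 on the plus strand. Its levels were 272, 248 and 284 CPM in adults 1 to 3 and 279, 120, 307 and 209 CPM in infants 1 to 4. Infants 2 and 4 lay below every adult, and the groups overlapped. The fitted log2 difference was -0.23 (SE 0.26, edgeR), -0.020 without infant 2 and -0.41 without infant 3. Of 14 listed partners 12 were tested, none passed by edgeR or DESeq2, and the median log2 difference was 0.029. Cd47, the ligand, was at 989, 990 and 1039 CPM in adults 1 to 3 and at 948, 1149, 963 and 980 CPM in infants 1 to 4. It was highest in infant 2, where Sirpa was lowest. Infant 2 was the highest library for 27.8% of all tested genes and the lowest for 29.9%.

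**Figure D2:**
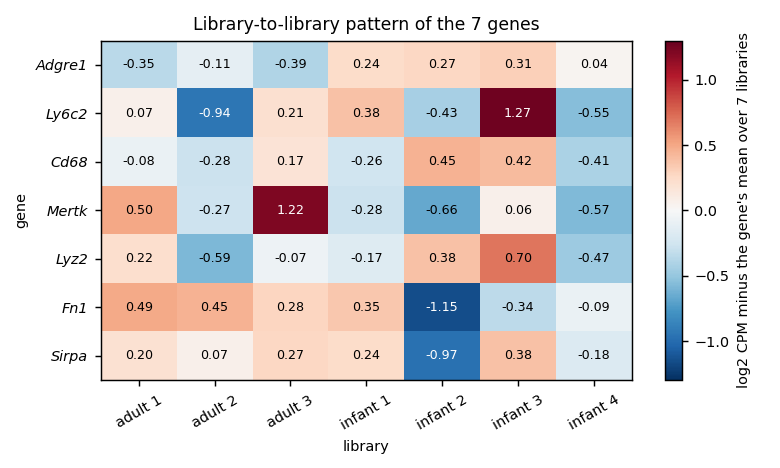
Log2 CPM of each gene in each library minus the gene's mean over the 7 libraries, in red where higher and blue where lower. Infant 3 is highest for Ly6c2 at 1.27 and for Lyz2 at 0.70, while infant 2 is lowest for Fn1 at -1.15 and Sirpa at -0.97.

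Per length of exon, the order of mean levels in RPKM, reads per kilobase of exon scaled to library size, was Lyz2, Cd68, Sirpa, Adgre1, Ly6c2, Mertk and Fn1. Lyz2 was at 1651 to 3885 RPKM and ranked 14 among the tested genes, and Fn1 was at 0.0556 to 0.202 RPKM and ranked 11864. In 4 of the 6 neighbouring pairs the ranges did not overlap. The ranges of Sirpa, at 21.6 to 57.5 RPKM, and Adgre1, at 14.3 to 22.7 RPKM, overlapped, but Sirpa was higher in 7 of 7 libraries. Those of Adgre1 and Ly6c2, at 5.66 to 25.4 RPKM, overlapped with Adgre1 higher in 6 of 7. Infant 3 was the exception, where Ly6c2 was the higher.

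**Figure D3:**
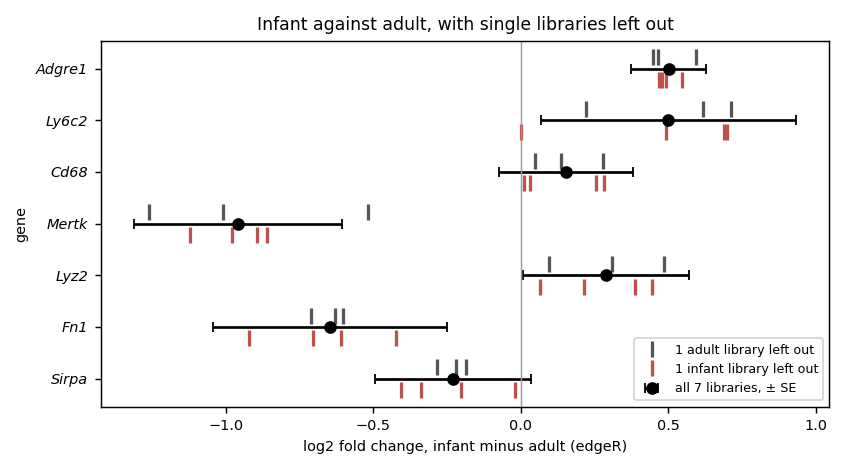
Fitted log2 difference, infant minus adult, of each gene with its SE over all 7 libraries (black), and the same value with 1 adult (grey) or 1 infant (red) library left out. The values of Adgre1 stay between 0.45 and 0.59, while that of Ly6c2 moves from 0.50 to 0.00069.

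None of the 7 genes passed an adjusted p of 0.05 by edgeR, beside 0.0163% of all tested genes, and 2 of 7, Adgre1 and Mertk, had an unadjusted p under it, beside 13.3%. DESeq2 called 1 of the 7, Adgre1, beside 1.57%. Nothing is read from these counts, because the genes were chosen with this comparison known. Their median SD of log2 CPM was 0.53 in infants and 0.23 in adults, beside 0.31 and 0.17 over all tested genes. In CPM, infant 3 was highest for 4 of the 7, beside 12.3% of all tested genes. In TPM it stayed highest for Ly6c2 and Lyz2, but Adgre1 was highest in infant 1 and Sirpa in adult 3. Infant 2 was lowest for 3 of the 7, beside 29.9%.

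Junction reads, which span a splice site, were compared as a share of exon reads after the levels had been seen, and with the intron shares made 14 comparisons. The Cd68 share was 75.6%, 75.7% and 75.8% in adults 1 to 3 and 72.5%, 72.2%, 71.7% and 73.0% in infants 1 to 4. All infants lay below all adults, as in 5.55% of 8198 genes with at least 100 reads in every library, and the groups of 7.77% did not overlap in either direction. An exact two-sided permutation test, with the one-sided p doubled, gave p = 0.0571, and 0.8 adjusted over the 14. In this form 0.0571 is the smallest p that 3 against 4 libraries allow. The test could therefore not reach 0.05, and nothing is concluded from it. None of the other 13 had groups that did not overlap.

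**Figure D4:**
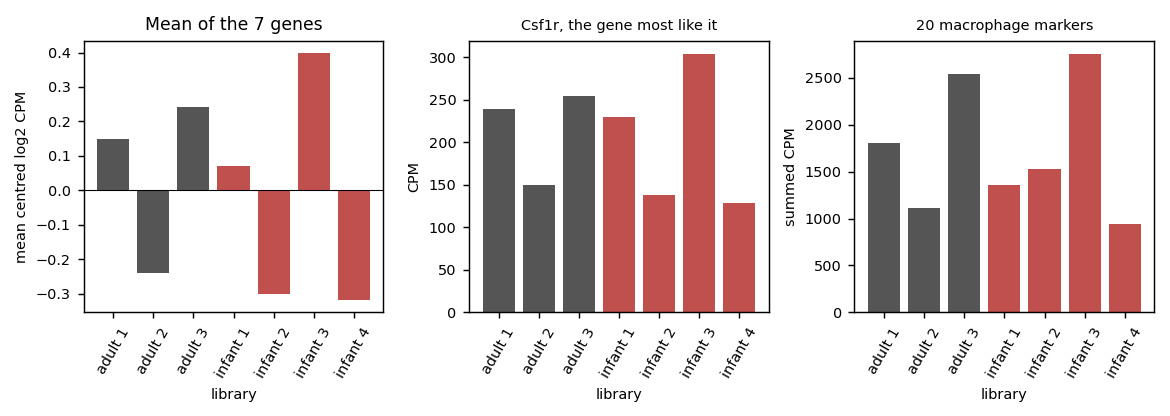
Mean centred log2 CPM of the 7 genes, CPM of Csf1r and summed CPM of 20 macrophage markers by library (adults grey, infants red). All 3 panels are highest in infant 3, where Csf1r reaches 304 CPM and the markers sum to 2754 CPM. Of this sum Apoe, C1qa, C1qb, C1qc and Csf1r make 2590 CPM. Csf1r was picked for its likeness to the mean of the 7 genes, and it is also among the 20 markers. The 3 panels are therefore not independent of each other.

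Csf1r, which encodes the receptor for the growth factor that macrophages depend on, had the pattern most like the mean of the 7 genes among 8018 candidates, with Pearson r = 0.993 over 7 libraries. Its levels were 239, 149 and 255 CPM in adults 1 to 3 and 230, 138, 304 and 129 CPM in infants 1 to 4. It was highest in infant 3 and low in adult 2 and in infants 2 and 4. Next came Entpd1, which encodes the ectonucleotidase CD39, at r = 0.983, Ly6a at 0.982 and Tgfbi, a matrix protein gene, at 0.960. Fcgr1 followed the same high and low ends, from 31.6 CPM in infant 3 to 8.63 CPM in infant 4. These are descriptions over libraries that share their preparation, and the choice of the highest of many makes high values likely. Between pairs of the 7 genes, r ran from -0.745 for Adgre1 with Mertk to 0.865 for Cd68 with Lyz2. Some of these values rested on infant 2. Without it, r of Sirpa moved from -0.271 to 0.82 with Cd68 and from -0.0641 to 0.769 with Lyz2. With Fn1 it moved from 0.789 to -0.0293. Adgre1 with Mertk was still at -0.690 without infant 2. The mean is thus not a pattern that all 7 share.

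Single genes had other nearest patterns. Ly6c2 was nearest to AB124611 at r = 0.982 and then to Plac8, a gene of monocytes, at r = 0.969. Plac8 was at 256 CPM in infant 3 against 89.5 to 142 CPM in the other 6. Cd68 was nearest to Plin2, a coat protein of lipid droplets, at r = 0.986, and to P2rx4, an ATP-gated channel, at r = 0.985. Lyz2 was nearest to Pilra, an inhibitory myeloid receptor, at r = 0.980. Mertk was nearest to Dse, an enzyme of dermatan sulfate synthesis, at r = 0.981, and Fn1 to Dcaf7 at r = 0.997. Adgre1 was nearest to Arl6ip4 at r = 0.976, and Sirpa to Litaf, a protein of endosomes, at r = 0.992.

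The summed level of the 20 listed markers, none of them among the 7, was 1806, 1110 and 2542 CPM in adults 1 to 3 and 1360, 1532, 2754 and 938 CPM in infants 1 to 4. Apoe, C1qa, C1qb, C1qc and Csf1r made 88.9% to 95.7% of each sum. With each of the 17 tested markers weighted alike, as a mean centred log2 CPM, adult 1 was highest at 0.48 and infant 3 next at 0.37, and infant 4 was lowest at -0.72. Of the 17, edgeR called none and DESeq2 called Slc40a1 and Cd5l lower, beside 0.979% of all tested genes. Infant 3 was highest for 8 of the 17, beside 12.3% of all tested genes, and infant 4 lowest for 11 of the 17, beside 9.57%. C1qa, of the complement starter C1q, ran from 59.3 CPM in infant 4 to 191 CPM in infant 3, while Vsig4 had 0 reads in every library. The classical monocyte list of 18 summed to 763 to 1024 CPM in adults and 658 to 1133 CPM in infants, with Ccr2, the receptor monocytes need to leave the marrow, at 28.0 to 77.4 CPM over all 7 libraries. The 17 tested genes of that list held no call by either tool. The 12 alveolar macrophage markers summed to 2055 to 2862 CPM in adults and 739 to 2270 CPM in infants, of which 93.7% was Fabp5, which other cells also express. Without Fabp5 they summed to 155 to 211 CPM in adults and 69.7 to 104 CPM in infants. Of that list Krt79 and Cidec had at most 3 reads in all. Of the 6 tested, edgeR called none and DESeq2 called Marco lower, beside 0.979% of all tested genes. The part of macrophages or monocytes in the levels of the 7 genes was not tested.

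Markers of other cells were measured too. Neutrophil genes summed to 18.6 to 25.9 CPM in adults and 18.9 to 41.8 CPM in infants, mostly of Csf3r, with 0 reads of Ly6g. Fibroblast and endothelial genes summed to 36.9 to 62.1 CPM in adults and 19.03 to 29.1 CPM in infants. Of this 86.4% was Kdr, 1 of 3 tested, which DESeq2 called lower, beside 0.979% of all tested genes. Without Kdr the groups overlapped, at 4.81 to 5.61 CPM in adults and 3.02 to 6.15 CPM in infants. Non-classical monocyte genes summed to 664 to 852 CPM in adults and 856 to 1018 CPM in infants, of which 84.1% was Eno3, an enzyme of glycolysis. Without Eno3 these groups overlapped too, at 131 to 171 CPM in adults and 112 to 154 CPM in infants, and neither tool called a gene of the list. Plasmacytoid DC genes, also without a call, summed to 339 to 353 CPM in adults and 208 to 328 CPM in infants. Without Spib they summed to 176 to 193 CPM in adults and 153 to 189 CPM in infants. Spib was their highest gene over all libraries together, but lay below Bst2 in infants 2 and 3. B cell genes summed to 35.4 to 50.7 CPM and T and NK cell genes to 14.3 to 49.6 CPM over the 7 libraries. The type 2 conventional DC list, the branch that carries Sirpa, summed to 183 to 224 CPM in adults and 128 to 202 CPM in infants. Its sum was lowest in infant 2, which was lowest for Sirpa and for 29.9% of all tested genes. In that list DESeq2 called Klf4 lower and Tnfsf4 higher in infants, beside 0.979% and 0.595% of all tested genes. Klf4, a factor of monocytes and of a subset of these DCs, was at 3.997, 7.17 and 6.52 CPM in adults 1 to 3 and at 1.04, 1.26, 1.25 and 1.54 CPM in infants 1 to 4, with adjusted p = 0.0604 by edgeR and 3.794e-07 by DESeq2. Among 25 listed myeloid factors 23 were tested, with a median log2 difference of -0.40. By edgeR none was called, and DESeq2 called Klf4, Klf2, Bhlhe40 and Runx1 lower, beside 0.979% of all tested genes.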

How the data were processed

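RNA-seq tables of 7 libraries, 3 adult and 4 infant, were grouped by the age in the labels. Per the file headers, the authors deposited whole read counts per gene for exons, junctions and introns, with RPKM and TPM, and a further expression column of the authors (unit other) was not used. Per the submitters' processing notes, the build was mm10 and the tools included TopHat2 2.1.0 and Cufflinks 2.2.1.0; strand use in counting was not given. GENCODE M21 held 99.2% of the identifiers.

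Total exon read counts were tested with edgeR 4.0.16 (quasi-likelihood, TMM, filterByExpr), with Benjamini-Hochberg adjustment over 12261 genes and a threshold of 0.05; DESeq2 1.42.0 and limma 3.58.1 were alternatives. Scripts were tested on simulated data. The deposited RPKM, log2-transformed with a pseudocount of 1 or 0.1, gave further alternatives. Most named partner genes were among the 3 of smallest p in a list, not all of them printed. Others, such as Axl, Gas6, Cd47 and Lyz1, came from a fixed choice. Genes of like pattern were named by highest r. The 7 genes, lists and rules were chosen with earlier results of these data known; the motifs, junction shares and library quality weights were chosen after values were seen. No replicate pair agreed within sampling noise (chi-square per degree of freedom 17.6 to 148.6). Intervals from read depth cover counting error only, and depth limits Fn1 and Mertk most.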

Additional observations from a re-analysis of the deposited data

Results flagged for a closer look

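The summed level of the 10 type 1 conventional DC markers in infant 3, 1456 CPM, stood apart from the other infants, at 1149 to 1182 CPM. Its gap to the nearest infant was 0.892 of the group's range, over Dixon's 95% critical value for 4 libraries. It was the 1 value of 34 examined that did so, and chance flags about 1 in 20. Most of the sum was Irf8, a factor of monocytes and of type 1 DCs, at 1222 CPM in infant 3 and 894 to 959 CPM in the other infants. Without Irf8 the list summed to 217 to 254 CPM over the 4 infants, so the gap lay in Irf8. Infant 3 was also highest for Ly6c2 and Lyz2.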

How the results depend on the processing

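The log2 differences of the 7 genes kept their direction in every alternative that gave a value, with Adgre1 between 0.42 and 0.59, Mertk between -1.26 and -0.48 and Ly6c2 between 0.00069 and 0.71. DESeq2 called Adgre1 (adjusted p = 0.0311), against 0.246 by edgeR and up to 0.693 over its alternatives. Mertk and Fn1 gave no value at 5 CPM, nor Fn1 in the filtered RPKM fits. Over all genes edgeR called 2, DESeq2 193, limma-voom with library quality weights 110, edgeR with no filter 8, and each of the 3 RPKM fits 1. Leaving out 1 library gave 2 to 10 genes, with 10 without adult 1, 4 without adult 3, infant 1 or infant 2. Of 196 partner and marker genes edgeR called 0, beside 0.0163% of all tested genes, and 35 had an unadjusted p under 0.05, beside 13.3%. DESeq2 called 14 of the 196, beside 1.57% of all tested genes, and quality weights 7, beside 110 of 12261. With no filter 1 of 249 was called. Leaving out 1 library gave 0 to 1, which was Klf4 without adult 1 and Slc40a1 without adult 3. The cause was not tested. With the replicate number as a block, edgeR called 1 gene and none of the lists. Same-numbered libraries correlated at 0.033, -0.035 and 0.10 in their deviations, so the numbers were not taken to pair them. With the depth here, 3 reads in a library are 0.134 to 0.167 CPM, which limits Fn1, at 14 to 56 reads.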
